A study of Mus musculus with 9 samples.

Results

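The transcripts of 10 genes of the NF-kB pathway and of the inflammasome cytokines were followed in 4T1 tumors grown in mice on a low-fat or a high-fat diet. The genes were Il1a, Il1b, Il1rn, Tnf, Nlrp3, Nfkb1, Nfkb2, Relb, Nfkbia, and Tnfaip3. They were picked by symbol out of 22609 genes counted in each library, with earlier results of these data known. The tumors came from 4T1 cells, a BALB/c mouse mammary carcinoma line used as a model of triple-negative breast cancer (TNBC), which were placed orthotopically in BALB/c hosts. The mice had eaten a diet with 10 kcal% fat (LFD) or 60 kcal% fat (HFD) for 6 weeks before 500000 cells were injected, and they stayed on that diet. Mice of the LFD and HFD groups received the vehicle, 0.3% hydroxy propyl cellulose. Mice of the HFD + EC359 group ate the 60 kcal% diet and received EC359, an inhibitor of the leukemia inhibitory factor receptor (LIFR), at 5 mg/kg by intraperitoneal injection on 5 days per week. Each group had 3 RNA-seq libraries, and the comparisons asked how these transcripts differ with the diet and, on the HFD, with EC359. No group combined the LFD with EC359, so an effect of EC359 on the LFD was not measured. The labels do not say that the 3 libraries of a group came from separate animals, so the p-values measure the spread between these libraries. That spread was small, with a common biological coefficient of variation (the spread beyond counting noise) of 3.63%. Whether it includes a spread between animals is not known.

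NF-kB is a family of dimeric transcription factors that IkB proteins hold in the cytoplasm until an IkB kinase marks them for degradation. The freed dimers switch on cytokine genes such as Il1b and Tnf, and also the genes of their own inhibitors and of some of their own subunits, so that the pathway limits itself. The inflammasome is the protein platform on which caspase-1 cuts the precursor of interleukin-1 beta into its secreted form, and NLRP3 is the best known sensor of such platforms. RNA levels report neither the nuclear entry of NF-kB nor the cutting of interleukin-1.

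The library totals ran from 5085357 to 9751201 counts, and all 10 genes passed the filter on low counts, as did 13366 genes in all. The totals were ordered by group without overlap. They were 5085357 to 6509130 in LFD, 7314704 to 7922852 in HFD, and 8043649 to 9751201 in HFD + EC359. Depth therefore cannot be told apart from the diet or EC359 in this design. At these depths a count of 0 in a library allows up to 3 counts, or 0.308 to 0.59 CPM (counts scaled to the library total), for counting error alone. Each of the 10 genes had counts in every library. The markers of carcinoma epithelium were present in an uneven way: Krt8 and Krt18 averaged 293 to 599 CPM in the groups, Epcam averaged 1.37 to 7.39 CPM, and Krt7 and Krt19 averaged at most 1.07 CPM. Of the receptor genes, Pgr averaged at most 0.746 CPM and Esr1 6.81 to 12.7 CPM, while Erbb2 averaged 74.9 to 107 CPM. The samples are labelled as a cell line, and they also held transcripts of host cells. The macrophage and monocyte markers, with Mrc1 and Csf1r the most abundant, summed to 1806 to 1836 CPM in the LFD libraries, 1674 to 1685 CPM in the HFD libraries, and 2072 to 2100 CPM in the HFD + EC359 libraries, and none of the 12 was at 0 in every library. In tumor tissue, fewer cells of a type and less RNA per cell cannot be told apart. The balance of genes poor and rich in GC also moved with the groups. The log2 difference between low-GC and high-GC genes was -0.54, -0.32, and -0.36 in the LFD libraries, 0.10, 0.13, and 0.16 in the HFD libraries, and 0.27, 0.25, and 0.30 in the HFD + EC359 libraries. LFD replicate 1 stood most apart from its group, with a mean chi-square per gene of 3.10 and 2.54 against the other LFD libraries. All other pairs of replicates had 1.36 to 1.57, where a value of 1 is counting noise alone. Without LFD replicate 1, the number of the 10 genes called was 7 for the diet (HFD versus LFD), 6 for EC359 (HFD + EC359 versus HFD), and 7 for HFD + EC359 versus LFD. All 9 libraries gave 7, 6, and 8. Of all tested genes, 47.3%, 31.3%, and 53.7% passed without LFD replicate 1, in the same order.

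Promoter sequences are shown for 4 of the genes that were lower on the HFD and that hold a match to the NF-kB binding motif, since such sites are the textbook basis of the feedback in the pathway. RefSeq promoter windows (assembly GRCm38.p6, not the mm9 build of the counts) were at hand for 8 of the 10 genes, in 14 windows, and not for Nfkb1 and Relb. The 250 bases before each start were searched on both strands for the NF-kB consensus decamer. A match was found in 4 of the 8 genes, Nlrp3, Nfkb2, Nfkbia, and Tnfaip3, and in 6 of the 14 windows. Over all windows of this length, 8.23% of 27025 genes and 7.25% of 32851 windows had a match. The windows of the 4 genes are printed 5′ to 3′ on the strand of the gene with the matches in capitals: Nfkbia at chr12:55492648-55492897 (minus strand), Nfkb2 at chr19:46304487-46304736 (plus strand, the first of its 3 windows), Tnfaip3 at chr10:19015411-19015660 (minus strand, the first of 2), and Nlrp3 at chr11:59541319-59541568 (plus strand, the second of 2).
Nfkbia: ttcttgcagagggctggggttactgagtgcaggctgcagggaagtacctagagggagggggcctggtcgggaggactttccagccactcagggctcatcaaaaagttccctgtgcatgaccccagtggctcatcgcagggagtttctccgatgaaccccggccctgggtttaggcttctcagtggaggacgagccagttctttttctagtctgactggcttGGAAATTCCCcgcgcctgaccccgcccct
Nfkb2: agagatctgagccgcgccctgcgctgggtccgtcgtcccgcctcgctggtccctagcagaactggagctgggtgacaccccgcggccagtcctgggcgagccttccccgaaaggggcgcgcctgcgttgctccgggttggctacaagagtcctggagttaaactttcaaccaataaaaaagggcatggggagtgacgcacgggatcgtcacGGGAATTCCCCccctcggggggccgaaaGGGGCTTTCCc
Tnfaip3: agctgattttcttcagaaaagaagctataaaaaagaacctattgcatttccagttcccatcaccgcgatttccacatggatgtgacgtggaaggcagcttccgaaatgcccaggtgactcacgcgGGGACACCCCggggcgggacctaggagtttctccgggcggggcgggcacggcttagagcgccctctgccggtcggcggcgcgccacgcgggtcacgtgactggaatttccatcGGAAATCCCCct
Nlrp3: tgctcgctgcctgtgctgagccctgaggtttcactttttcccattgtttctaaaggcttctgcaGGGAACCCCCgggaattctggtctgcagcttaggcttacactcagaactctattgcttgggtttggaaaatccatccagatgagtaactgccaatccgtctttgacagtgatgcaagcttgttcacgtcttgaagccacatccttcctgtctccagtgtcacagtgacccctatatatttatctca

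In Nfkbia the match began 29 bases before the start. In Nfkb2 a pair of overlapping matches on opposite strands began 39 and 38 bases before the start, and a further match began 11 bases before it. In Tnfaip3 the matches began 125 and 12 bases before the start, and in Nlrp3 the match began 186 bases before it. The windows of Il1a, Il1b, Il1rn, and Tnf held no match, which says only that the decamer is not in these 250 bases. The same windows were searched for 3 other motifs. The AP-1 motif TGANTCA was found in 4 of the 8 genes and in 7.82% of all genes. The STAT motif TTCNNNGAA, read here because LIFR signals through STAT3, was found in 1 of the 8 genes, Nfkb2, and in 8.13% of all genes. The CRE motif TGACGTCA was found in none of the 8 and in 1.77% of all genes. A match of letters is a description and not a bound site.

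With TMM scaling, the tumors on the HFD had lower levels of the subunit and inhibitor transcripts among the 10 genes than those on the LFD. Levels of Nlrp3 and Il1b were also lower. The decrease of Relb ended once the GC trend of the libraries was removed (-0.016, edgeR adjusted p = 0.837). Of the 10 genes, 7 were lower in HFD than in LFD (Nlrp3, Tnfaip3, Nfkb2, Nfkbia, Relb, Nfkb1, and Il1b), 0 were higher, and Il1a, Il1rn, and Tnf did not pass an adjusted p of 0.05. Over all tested genes, 51.8% passed in this comparison, 25.8% as lower and 26.0% as higher. The median log2 fold change of the 10 genes was -0.30, against 0.0071 over all tested genes. In TMM-scaled CPM, used for every comparison of groups by overlap, the libraries of the 2 groups did not overlap for 7 of the 10 genes. They did not overlap for 57.1% of all tested genes. In HFD + EC359 versus HFD, 3 of the 10 were higher (Il1rn, Tnf, and Nlrp3) and 3 were lower (Tnfaip3, Relb, and Nfkb2), where 26.6% of all tested genes passed, 12.7% as higher and 13.9% as lower. Scaling by library totals alone gave 3 higher and 1 lower among the 10, without Relb and Nfkb2, and changed the split over all tested genes from 1697 higher and 1852 lower to 2096 higher and 1495 lower. The median over the 10 was 0.014, against 0.0056 over all tested genes, and the groups did not overlap for 6 of the 10 and for 41.3% of all tested genes. None of the 10 passed the threshold of the study's methods, a fold change over 2 with an adjusted p under 0.01, in any of the 3 comparisons, where 5.71%, 3.43%, and 5.09% of all tested genes did. With all 9 libraries and TMM scaling, the fitted log2 fold changes of the 10 genes ran from -0.74 to 0.28, from -0.24 to 0.61, and from -0.70 to 0.57 in the 3 comparisons. Adjusted p-values throughout are from the quasi-likelihood test of edgeR with the Benjamini-Hochberg method over all tested genes, and fold changes are on the log2 scale with their SE.

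**Figure D1:**
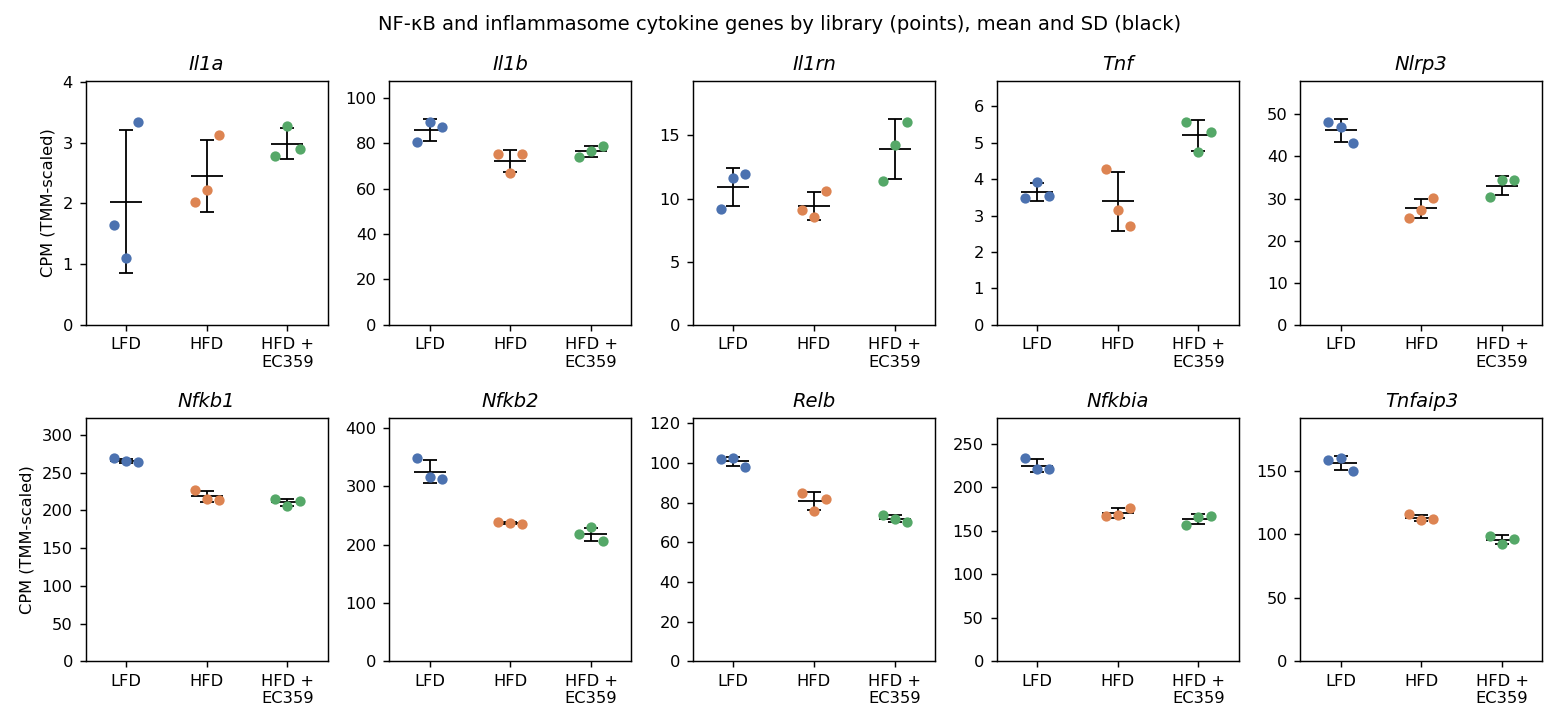
CPM of the 10 genes (vertical axes from 0, scaled with TMM factors) in the 3 libraries of the LFD, HFD, and HFD + EC359 groups, with a point for each library, the mean as a black line and the SD as its error bar. The lower row shows the subunits and inhibitors, whose LFD libraries all lie above those of the other groups. The upper row shows the ligands, the antagonist and the sensor, of which Il1a, Il1rn, and Tnf have their highest mean in HFD + EC359. Of these, only Tnf has all its HFD + EC359 libraries above those of both other groups.

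Il1b encodes interleukin-1 beta, the cytokine that the inflammasome releases, and per length it was the most abundant of the genes for secreted ligands. Its level was 80.4, 89.5, and 87.2 CPM in the LFD libraries, 75.03, 66.7, and 75.2 CPM in the HFD libraries, and 73.7, 76.5, and 78.8 CPM in the HFD + EC359 libraries. In CPM every LFD library lay above every library of the other groups, while the HFD and HFD + EC359 libraries overlapped. This order depended on the scaling. In TPM (counts scaled to gene length and then to the library), LFD replicate 1 was at 128.7. It then lay below HFD replicates 1 (130.5) and 3 (132.3) and below every HFD + EC359 library (lowest 131.3). Il1b fell on the HFD by 0.25 on the log2 scale (SE 0.062, edgeR adjusted p = 0.00106). The difference of HFD + EC359 from HFD was 0.08 (SE 0.059, adjusted p = 0.346).

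Il1a encodes interleukin-1 alpha, which acts on the same receptor and needs no inflammasome to be active. It lies on chromosome 2 (mm9, 129125346 to 129135708, minus strand), on the same strand as Il1b (129190316 to 129196856) and close to it. It was the least abundant of the 10 genes, with 7 to 29 counts in a library. Its level was 1.64, 1.10, and 3.35 CPM in the LFD libraries, 2.02, 2.23, and 3.13 CPM in the HFD libraries, and 2.79, 3.27, and 2.90 CPM in the HFD + EC359 libraries. The LFD libraries spread over the whole range, the groups overlapped in each comparison, and no difference was detectable at this depth (edgeR adjusted p = 0.525 for the diet and 0.521 for EC359).

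Tnf encodes tumor necrosis factor, both an activator and a target of NF-kB. It had 17 to 53 counts in a library, with 3.48, 3.92, and 3.52 CPM in the LFD libraries, 4.29, 3.14, and 2.73 CPM in the HFD libraries, and 5.58, 4.74, and 5.30 CPM in the HFD + EC359 libraries. The 3 HFD + EC359 libraries lay above the other 6, and the LFD and HFD libraries overlapped. Tnf rose with EC359 by 0.61 on the log2 scale, or 1.53-fold (SE 0.21, edgeR adjusted p = 0.0325). This call was lost with DESeq2, with counts thinned to the smallest library, with the GC trend removed (adjusted p = 0.0578), and without HFD replicates 2 or 3 or HFD + EC359 replicates 1 or 3 (each alone), with fold changes of 0.48 to 0.82 over all alternatives. The difference of HFD from LFD was -0.10 (SE 0.25, adjusted p = 0.753).

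Il1rn encodes the interleukin-1 receptor antagonist, which occupies the receptor of interleukin-1 alpha and beta without a signal. Its level was 9.21, 11.6, and 11.98 CPM in the LFD libraries, 9.08, 8.51, and 10.6 CPM in the HFD libraries, and 11.4, 14.2, and 16.1 CPM in the HFD + EC359 libraries. The HFD + EC359 libraries lay above every HFD library, and the lowest of them lay among the LFD libraries. Il1rn rose with EC359 by 0.58 on the log2 scale, or 1.49-fold (SE 0.14, edgeR adjusted p = 0.00241), and it passed in all 18 alternatives tried. In HFD versus LFD the value was -0.23 (SE 0.16, adjusted p = 0.242), and it passed only with the GC trend removed (-0.41, adjusted p = 0.0395).

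The antagonist was also set against the ligand within each library, where library scaling cancels. There were 7.91 ± 0.748 counts of Il1b for each count of Il1rn in the LFD libraries, 7.72 ± 0.601 in the HFD libraries, and 5.58 ± 0.806 in the HFD + EC359 libraries (SD, n = 3). The highest HFD + EC359 library, at 6.47, lay below the lowest of the other 6, at 7.08. The log2 ratio of Il1rn to Il1b was higher by 0.48 in HFD + EC359 than in HFD and by 0.51 than in LFD, each with p = 0.1 in an exact two-sided permutation test (0.15 adjusted over the 3 comparisons), and 0.1 is the smallest p that 3 libraries against 3 can give. HFD and LFD differed by 0.032 (exact permutation p = 0.8).

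Nlrp3 encodes the sensor whose assembly starts the NLRP3 inflammasome, and it had the largest decrease on the HFD of the 10 genes. Its level was 48.3, 47.1, and 43.2 CPM in the LFD libraries, 25.5, 27.4, and 30.1 CPM in the HFD libraries, and 30.4, 34.4, and 34.4 CPM in the HFD + EC359 libraries. The groups did not overlap in any comparison, although the highest HFD library and the lowest HFD + EC359 library nearly met. Nlrp3 fell on the HFD by 0.74 on the log2 scale (SE 0.091, edgeR adjusted p = 3.44e-08) and rose with EC359 by 0.26 (SE 0.089, adjusted p = 0.0261). The second call was lost with DESeq2, with thinned counts, and without HFD replicates 1 or 2 or HFD + EC359 replicates 2 or 3 (each alone), with fold changes of 0.21 to 0.32. In HFD + EC359 Nlrp3 stayed below its LFD level, by -0.48 (SE 0.086, adjusted p = 1.74e-05).

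Markers of myeloid cells, which are a major source of these cytokines and of NLRP3, moved with the groups as well. In HFD + EC359 versus HFD, 12.7% of all tested genes were higher and 13.9% were lower. Of the 12 macrophage and monocyte markers, 9 were higher and 1 was lower, with a median log2 fold change of 0.29. Among them Csf1r, the receptor that macrophages need to survive, averaged 295 CPM in HFD and 353 CPM in HFD + EC359. Of the 8 tested neutrophil markers, 4 were higher and 2 were lower, and the summed level of the neutrophil list ran from 151 to 167 CPM in HFD and from 177 to 185 CPM in HFD + EC359. In HFD versus LFD, where 26.0% of all tested genes were higher and 25.8% lower, 6 macrophage markers were higher and 3 lower. Mrc1 was among the lower (567 CPM in LFD and 443 CPM in HFD). The neutrophil list summed to 110 to 131 CPM in LFD, and 4 of its 8 tested markers were higher on the HFD and 0 lower. Csf3r averaged 53.1 CPM in LFD and 62.7 CPM in HFD. S100a9, the other of the 2 most abundant, averaged 43.1 CPM in LFD and 40.9 CPM in HFD and did not pass. Of 7 tested mast cell markers, with Tpsab1 and Tpsb2 the most abundant, 5 were lower and 1 higher on the HFD. With EC359, 6 were higher and 0 lower. The mast cell list summed to 125 to 136 CPM in LFD, 50.4 to 55.1 CPM in HFD, and 190 to 194 CPM in HFD + EC359. Of 4 tested dendritic cell markers, with Zbtb46 and Itgae the most abundant, 3 were lower on the HFD and 1 was higher with EC359. The part of any of these cells in the values of Il1b, Il1rn, Tnf, and Nlrp3 was not tested.

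Nfkb1 encodes p105, the precursor of the p50 subunit. Its level was 269, 265, and 264 CPM in the LFD libraries, 227, 215, and 214 CPM in the HFD libraries, and 215, 206, and 212 CPM in the HFD + EC359 libraries. The LFD libraries lay above all others and the other 2 groups overlapped. Nfkb1 fell on the HFD by 0.28 on the log2 scale (SE 0.041, edgeR adjusted p = 7.17e-07), and HFD + EC359 differed from HFD by -0.051 (SE 0.040, adjusted p = 0.385).

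Nfkb2 encodes p100, the precursor of p52 in the non-canonical arm of the pathway, and was the second most abundant of the 10 genes per length. It had 348, 316, and 312 CPM in the LFD libraries, 239, 237, and 235 CPM in the HFD libraries, and 218, 229.7, and 207 CPM in the HFD + EC359 libraries. The groups were in descending order without overlap. Nfkb2 fell on the HFD by 0.45 on the log2 scale (SE 0.044, edgeR adjusted p = 3.20e-10) and with EC359 by a further 0.12 (SE 0.044, adjusted p = 0.0386).

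Relb encodes the partner of p52. Its level was 102, 102, and 98.2 CPM in the LFD libraries, 84.7, 75.97, and 81.6 CPM in the HFD libraries, and 73.6, 71.99, and 70.3 CPM in the HFD + EC359 libraries. Again the groups descended without overlap. Relb fell on the HFD by 0.32 on the log2 scale (SE 0.056, edgeR adjusted p = 1.38e-05), a call that ended with the GC trend removed (-0.016, adjusted p = 0.837), and with EC359 by 0.17 (SE 0.055, adjusted p = 0.0202). The calls of Nfkb2 and Relb with EC359 were lost in 9 and 8 of 18 alternatives, among them DESeq2, thinned counts, library totals, and the GC trend removed. Nfkb2 lost its call without any 1 of the HFD libraries or of HFD + EC359 replicates 1 and 3, and Relb without HFD replicates 1 or 3 or HFD + EC359 replicates 2 or 3 (each alone).

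Nfkbia encodes IkB alpha, the inhibitor that NF-kB itself induces, and was the most abundant of the 10 genes per length. It had 233, 221, and 221 CPM in the LFD libraries, 167, 168, and 177 CPM in the HFD libraries, and 157, 166, and 167 CPM in the HFD + EC359 libraries. The LFD libraries lay above all others, with the other 2 groups overlapping. Nfkbia fell on the HFD by 0.40 on the log2 scale (SE 0.044, edgeR adjusted p = 4.37e-09). HFD + EC359 differed from HFD by -0.060 (SE 0.043, adjusted p = 0.341), and passed only with the GC trend removed (-0.12, adjusted p = 0.0255).

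Tnfaip3 encodes A20, the ubiquitin editor that ends signals to the IkB kinase. Its level was 159, 160.0, and 149.8 CPM in the LFD libraries, 116, 111, and 112 CPM in the HFD libraries, and 99.1, 92.2, and 96.8 CPM in the HFD + EC359 libraries. The groups descended without overlap. Tnfaip3 fell on the HFD by 0.47 on the log2 scale (SE 0.048, edgeR adjusted p = 1.09e-09) and with EC359 by a further 0.24 (SE 0.048, adjusted p = 0.000301). Both calls held in all 18 alternatives, and Il1rn and Tnfaip3 were the only members of which the difference between HFD + EC359 and HFD did so.

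**Figure D2:**
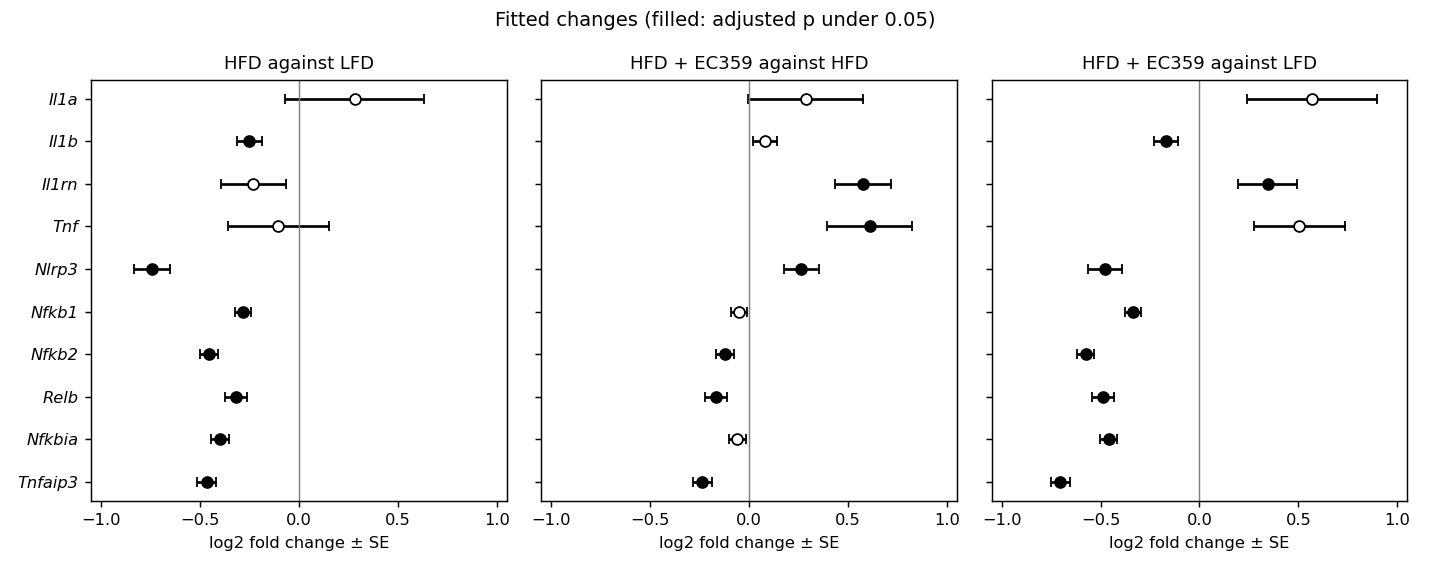
Log2 fold changes (horizontal axes) of the 10 genes in the 3 comparisons (panels), with bars for the SE and filled points where the adjusted p is under 0.05. In the middle panel Il1rn, Tnf, and Nlrp3 lie on the positive side and Nfkb2, Relb, and Tnfaip3 on the negative side, and no point in any panel reaches a 2-fold change.

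Set directly against LFD, the HFD + EC359 tumors had 7 of the 10 transcripts lower and 1 higher, with 58.3% of all tested genes past the test. With library totals alone, 6 were lower and 2 higher, since Il1b then failed and Tnf passed. At that scaling 58.5% of all tested genes passed. The groups did not overlap for 8 of the 10 genes and for 62.9% of all tested genes. Tnfaip3 was lower by -0.70 (SE 0.048, edgeR adjusted p = 4.83e-14), the largest difference, followed by Nfkb2 (-0.58), Relb (-0.49), Nlrp3 (-0.48), Nfkbia (-0.46), Nfkb1 (-0.33), and Il1b (-0.17, adjusted p = 0.0160). Il1rn was higher by 0.35 (SE 0.15, adjusted p = 0.0455), a call kept in 6 of 18 alternatives, and lost with DESeq2, RLE factors, the 6 libraries alone, thinned counts, the GC trend removed, and without any 1 of 7 libraries, LFD replicate 3 and HFD + EC359 replicate 1 being the exceptions. The call of Il1b was lost in 5 of 18 alternatives, among them those without LFD replicate 2, LFD replicate 3, or HFD + EC359 replicate 1. Tnf (0.51, adjusted p = 0.0572) and Il1a (0.57, adjusted p = 0.140) did not pass, and Il1a passed without LFD replicate 3, which held the highest Il1a level of all libraries. These 3 comparisons share libraries, so their values are not independent.

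The base composition of the 10 transcripts is given beside these values, because the GC balance of the libraries moved with the groups. The exons of Il1a (41.3% GC), Il1rn (45.3%), and Il1b (46.6%) were the poorest in GC, and those of Nfkb2 (59.5%) and Relb (61.2%) the richest. Once each library's trend with GC content and length was removed, Relb differed by -0.016 in HFD versus LFD (edgeR adjusted p = 0.837) and by -0.084 in HFD + EC359 versus LFD (adjusted p = 0.208), and both calls ended. The decrease of Nfkb2 on the HFD went from -0.45 to -0.19 (adjusted p = 9.72e-05), and its difference between HFD + EC359 and LFD from -0.58 to -0.24. The decreases on the HFD of Nfkbia and Nfkb1 also became smaller and still passed. Nfkbia went from -0.40 to -0.29 (adjusted p = 6.10e-07) and Nfkb1 from -0.28 to -0.20 (adjusted p = 6.51e-05). By contrast, Tnfaip3 went from -0.47 to -0.52 (adjusted p = 5.96e-12), Nlrp3 from -0.74 to -0.72 (adjusted p = 2.04e-08), and Il1b from -0.25 to -0.37 (adjusted p = 2.11e-06). In HFD + EC359 versus HFD, Il1rn (0.51), Nlrp3 (0.24), and Tnfaip3 (-0.25) passed along with Nfkbia, and Nfkb2 (-0.049) and Relb (-0.068) did not.

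**Figure D3:**
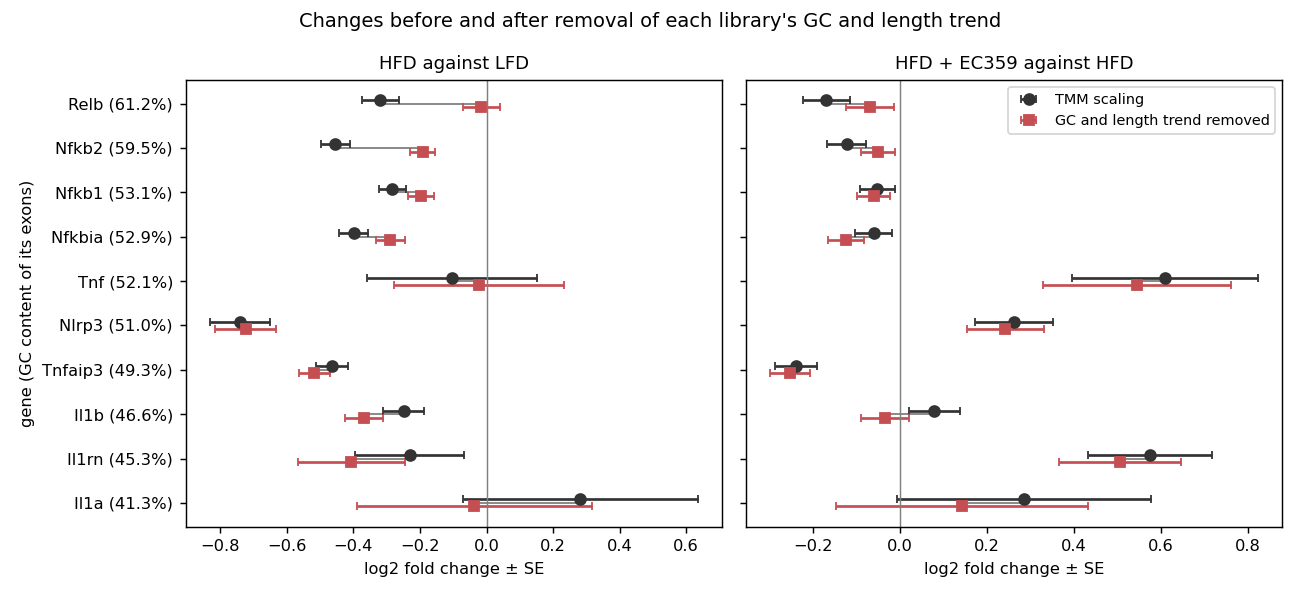
Log2 fold changes with SE bars (horizontal axes) of the 10 genes, ordered by the GC content of their exons, with TMM scaling (black circles) and after removal of each library's GC and length trend (red squares). Relb moves from -0.32 to -0.016 and Nfkb2 from -0.45 to -0.19 in HFD versus LFD, while Tnfaip3 and Nlrp3 stay near their values.

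Compared per length, as the mean over the 9 libraries in TPM (counts scaled to gene length and then to the library), the levels ran over a wide range. Nfkbia was highest (267 TPM), followed by Nfkb2 (179 TPM), Il1b (134 TPM), Nfkb1 (128 TPM), Relb (87.0 TPM), Tnfaip3 (59.9 TPM), Nlrp3 (20.04 TPM), Il1rn (9.69 TPM), Tnf (5.76 TPM), and Il1a (2.89 TPM). Neighbors in this order overlapped across the libraries for Il1b and Nfkb1, for Relb and Tnfaip3, and for Il1rn and Tnf. The other neighbors did not overlap. All subunits and inhibitors were above Nlrp3, Il1rn, Tnf, and Il1a in level.

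Each of 4 members was also set against all other tested genes by the correlation of log2 CPM over the 9 libraries, which share their depth and GC balance with the groups. The patterns most like that of Il1b were those of Rarres1 (r = 0.98), Ankrd50 (r = 0.97), and Gpr137 (r = 0.96). For Tnf they were Baiap2l1 (r = 0.96), Plekhn1 (r = 0.95), and Aasdhppt (r = 0.95). For Nfkbia they were Sys1, Pgls, and Itga3, and for Relb they were Psmb5, Hyou1, and F630110N24Rik, each with r = 0.99. Among the members themselves, Relb had r = 0.98 with Tnfaip3, 0.97 with Nfkb1, and 0.96 with Nfkb2, and -0.47 with Tnf. Nfkbia had r = 0.97 with Nfkb2 and 0.89 with Nlrp3. These are descriptions of 9 libraries in 3 groups.

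The other genes of the pathway were read from 7 lists with 135 genes, of which 122 were tested. In HFD versus LFD, 25 were higher and 44 lower, with a median log2 fold change of -0.10, and in HFD + EC359 versus HFD, 20 were higher and 11 lower, with a median of 0.077. The shares of all tested genes that passed are those given for the members. In the second comparison, library totals alone gave 23 higher and 7 lower, and removal of the GC trend gave 13 higher and 12 lower. That removal left 2757 of all 13366 tested genes higher and 2944 lower in HFD versus LFD. In HFD + EC359 versus HFD it left 1347 higher and 2214 lower.

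Of the 7 remaining Rel and IkB genes, all tested, 5 were lower on the HFD, 0 were higher, and 2 did not pass (median -0.21). Rela, the p65 subunit, fell by 0.21 on the log2 scale (edgeR adjusted p = 0.000849), from 128 to 139 CPM in the LFD libraries to 114 to 116 CPM in the HFD libraries. Nfkbib and Nfkbie, further IkB proteins, fell by 0.50 (adjusted p = 5.74e-05) and 0.42 (adjusted p = 1.58e-07). With EC359 only Bcl3, a nuclear IkB protein that works with p50 and p52, passed. Its level was 74.5, 73.7, and 69.9 CPM in the HFD libraries and 58.8, 59.0, and 58.6 CPM in the HFD + EC359 libraries, a decrease of 0.31 (adjusted p = 0.000585), and it did not differ detectably between HFD and LFD (-0.0054, adjusted p = 0.954). With the GC trend removed, 2 of the 7 were lower and 1 higher on the HFD: Rela (0.063), Nfkbib (-0.22), and Nfkbid, another IkB protein named after its values were seen, lost their calls, and Bcl3 passed as higher (0.32).

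Of the 30 kinase and adaptor genes, 6 were higher and 10 lower on the HFD (median -0.040), and with EC359 1 was higher and 2 were lower (2 and 1 with library totals alone). With the GC trend removed, 4 were higher and 12 lower on the HFD, and with EC359 0 were higher and 1 lower. Card10, a scaffold between receptors and the IkB kinase and the most abundant of the list, fell on the HFD by 0.64 on the log2 scale (edgeR adjusted p = 1.37e-14) and with EC359 by 0.12 (adjusted p = 0.0220). Myd88, the adaptor of the interleukin-1 receptor, fell on the HFD by 0.52 (adjusted p = 8.44e-09). Irak3, a brake on the same receptor, rose on the HFD by 0.85 (adjusted p = 0.00173), from 2.51 to 5.32 CPM in the LFD libraries to 7.09 to 8.51 CPM in the HFD libraries. It fell with EC359 by 0.58 (adjusted p = 0.0230), to 5.00 to 5.19 CPM. Malt1, a protease of the Card10 complex, rose with EC359 by 0.26 (adjusted p = 0.0293). All 3 calls with EC359 were lost in 6 or 7 of 18 alternatives, among them those without replicate 1 or replicate 3 of HFD + EC359. They were also lost without HFD + EC359 replicate 2 (Irak3), HFD replicate 1 (Card10, Malt1), HFD replicate 2 (Irak3, Card10), or HFD replicate 3 (Malt1), and Card10 with the GC trend removed was at 0.021.

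Of the 13 tested ubiquitin editors and other brakes, 7 were lower and 2 higher on the HFD (median -0.20), and with EC359 3 were lower and 1 higher. Zc3h12a, an RNase that degrades cytokine transcripts, fell on the HFD by 0.60 on the log2 scale (edgeR adjusted p = 1.04e-09) and with EC359 by 0.22 (adjusted p = 0.00835). The 2 that were higher on the HFD were Itch and Tax1bp1, both partners of A20 in ubiquitin editing, which rose by 0.59 (adjusted p = 7.31e-11) and 0.58 (adjusted p = 7.99e-08). Tax1bp1 rose further with EC359, from 74.8 to 80.5 CPM in the HFD libraries to 92.9 to 94.8 CPM in the HFD + EC359 libraries (0.28, adjusted p = 0.000961). Rbck1 and Rnf11, the most abundant of the list, fell on the HFD by 0.21 and 0.27 (adjusted p = 0.000115 and 3.49e-05). Rbck1 was at 0.083 with the GC trend removed and then did not pass, and the call of Zc3h12a with EC359 was lost without HFD + EC359 replicate 1. With library totals alone, 2 of the list were higher and 1 lower with EC359, DESeq2 gave 1 and 1, and removal of the GC trend gave 2 higher and 5 lower on the HFD and 1 higher and 4 lower with EC359.

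The IL-1 family held the largest change of the 7 lists in both comparisons. Of 13 tested ligands and receptors, 5 were lower and 1 higher on the HFD (median -0.22), and with EC359 6 were higher and 0 lower (median 0.24). With the GC trend removed, 7 were lower and 1 higher on the HFD and 4 were higher with EC359. Il1f5, the antagonist of the IL-36 receptor, had 4.50, 6.44, and 6.70 CPM in the LFD libraries, 0.883, 0.655, and 0.818 CPM in the HFD libraries, and 3.03, 3.39, and 3.50 CPM in the HFD + EC359 libraries. It fell on the HFD by 2.89 on the log2 scale (SE 0.32, edgeR adjusted p = 3.28e-09) and rose with EC359 by 2.05 (SE 0.33, adjusted p = 1.28e-05). Il1f9, the ligand IL-36 gamma, fell by 1.17 (adjusted p = 3.01e-05) and rose by 1.22 (adjusted p = 1.24e-05), to 7.76 to 8.20 CPM in the HFD + EC359 libraries. Both genes are expressed in keratinocytes, and the basal keratin genes, with Krt14 and Krt5 the most abundant, summed to 968 to 1139 CPM in LFD, 74.0 to 84.9 CPM in HFD, and 414 to 416 CPM in HFD + EC359. None of the 4 was at 0 in every library, and their part in the values of Il1f5 and Il1f9 was not tested.

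Il33, an alarmin of stromal and epithelial cells, went the other way on the HFD. Its level was 8.18, 5.49, and 6.52 CPM in the LFD libraries, 28.4, 26.7, and 22.5 CPM in the HFD libraries, and 25.6, 27.4, and 28.7 CPM in the HFD + EC359 libraries. It rose on the HFD by 1.97 on the log2 scale (SE 0.14, edgeR adjusted p = 4.52e-13), and HFD + EC359 differed from HFD by 0.075 (adjusted p = 0.635). All 8 fibroblast markers were higher on the HFD, as were 26.0% of all tested genes. Their summed level was 6567 to 7636 CPM in LFD, 10954 to 11572 CPM in HFD, and 3572 to 3651 CPM in HFD + EC359. Most of this sum was Col1a1 and Col3a1, which averaged 6870 and 3012 CPM in HFD and 1613 and 763 CPM in HFD + EC359. With EC359, 5 of the 8 markers were lower, 1 was higher, and the others did not pass. The part of the fibroblast transcripts in the value of Il33 was not tested. The receptor of interleukin-1, Il1r1, fell on the HFD by 0.22 (adjusted p = 0.000285) and rose with EC359 by 0.23 (adjusted p = 0.000125), from 118 to 121 CPM in the HFD libraries to 136 to 145 CPM in the HFD + EC359 libraries. Sigirr, a decoy-like brake on IL-1 family receptors, fell on the HFD by 0.38 (adjusted p = 0.000459), and lost its call with the GC trend removed (-0.15).

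Most called genes of the inflammasome and pyroptosis list were higher on the HFD, unlike Nlrp3. Of 19 tested genes, 8 were higher and 3 lower on the HFD (median 0.26), and with EC359 4 were higher and 0 lower. Over all tested genes, 26.0% were higher and 25.8% lower on the HFD, and 12.7% were higher and 13.9% lower with EC359. With the GC trend removed, 5 were higher and 2 lower on the HFD (median 0.12) and 2 were higher with EC359, and DESeq2 called 1 as higher with EC359. Nlrc4, the sensor adaptor for bacterial flagellin, rose on the HFD by 1.10 on the log2 scale (edgeR adjusted p = 0.000501), from 2.25 to 2.51 CPM in the LFD libraries to 4.45 to 6.41 CPM in the HFD libraries. Naip5, which pairs with Nlrc4, rose by 0.67 (adjusted p = 0.0162), and its counts may be split among near-identical Naip copies. P2rx7, the ATP-gated channel that triggers NLRP3, had 39.7, 39.7, and 40.0 CPM in the LFD libraries, 59.0, 60.8, and 65.7 CPM in the HFD libraries, and 78.0, 74.0, and 73.3 CPM in the HFD + EC359 libraries. P2rx7 thus climbed without overlap, by 0.63 on the HFD (adjusted p = 7.03e-09) and by 0.28 with EC359 (adjusted p = 0.000569). Txnip, a binding partner of NLRP3, rose on the HFD by 0.39 (adjusted p = 9.94e-08), while Gsdmd, the pore of pyroptosis, fell by 0.23 (adjusted p = 0.00141). The calls of Naip5 and Gsdmd (-0.070) were lost with the GC trend removed, and that of Naip5 also without LFD replicate 3, HFD replicate 2, or HFD replicate 3. Nlrp10 rose with EC359 by 1.11 (adjusted p = 0.0240) from low levels of 0.883 to 0.954 CPM to 1.60 to 2.26 CPM, a call lost with DESeq2 and without any 1 HFD library or replicates 1 or 2 of HFD + EC359 (each alone).

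Of 14 tested TNF family ligands and receptors, 5 were lower and 1 higher on the HFD (median -0.29), and with EC359 2 were higher and 2 lower. With the GC trend removed, 4 were lower and 1 higher on the HFD, and 1 was higher and 2 lower with EC359. The receptor of TNF, Tnfrsf1a, fell on the HFD by 0.23 on the log2 scale (edgeR adjusted p = 6.75e-05), and Tnfrsf12a, the receptor of TWEAK, fell by 0.50 (adjusted p = 1.77e-10) and with EC359 by 0.13 (adjusted p = 0.0368). Ltb and Tnfsf11, ligands that feed the non-canonical arm with Nfkb2 and Relb, fell on the HFD by 0.62 (adjusted p = 0.0111) and 1.45 (adjusted p = 0.00806). Tnfsf11 had 1.94 to 2.86 CPM in the LFD libraries and 0.631 to 1.36 CPM in the HFD libraries. Cd40, a receptor of the same arm, rose with EC359 by 0.59 (adjusted p = 0.0434). Tnfsf12, which encodes TWEAK and shares exons with a gene on its own strand in the annotation, fell with EC359 by 0.40 (adjusted p = 0.0105). The call of Cd40 was kept in 7 of 18 alternatives and lost with the replicate block and without LFD replicate 2, HFD replicate 1, HFD replicate 3, or any 1 HFD + EC359 library. That of Tnfrsf12a with EC359 was kept in 9 of 18 and lost without any 1 library of either group, and that of Tnfsf12 was lost without HFD replicate 3. On the HFD, the calls of Ltb and Tnfrsf1a (-0.032) were lost with the GC trend removed, and that of Ltb also without LFD replicate 1 or HFD replicate 3.

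The known target genes of NF-kB split between the directions. Of 26 tested, 7 were higher and 9 lower on the HFD (median -0.021), and with EC359 6 were higher and 3 lower (median 0.0034). With library totals alone, 9 were higher and 7 lower on the HFD, and with the GC trend removed, 6 were higher and 11 lower on the HFD and 5 higher and 4 lower with EC359. Saa3, an acute-phase protein gene, had 11.7, 12.4, and 8.99 CPM in the LFD libraries, 41.6, 40.0, and 40.8 CPM in the HFD libraries, and 12.6, 12.2, and 11.4 CPM in the HFD + EC359 libraries. It rose on the HFD by 1.88 on the log2 scale (SE 0.11, edgeR adjusted p = 2.57e-15) and fell with EC359 by 1.76 (SE 0.10, adjusted p = 7.44e-16). The chemokine gene Ccl2, which attracts monocytes, rose in both steps, by 0.21 on the HFD (adjusted p = 0.00624) and by 0.60 with EC359 (adjusted p = 2.50e-10), to 133 to 142 CPM. Bcl2a1b, a survival gene with near-identical copies among which counts may be split, rose on the HFD by 2.08 (adjusted p = 1.68e-05), and Cd83, a surface protein of activated immune cells, rose with EC359 by 0.78 (adjusted p = 0.00577). Mmp9, the most abundant of the list at 421 to 448 CPM, passed in neither comparison with TMM scaling (0.050, adjusted p = 0.230, and -0.052, adjusted p = 0.277), and was higher on the HFD with library totals alone and with the GC trend removed (up to 0.22). Without the GC trend Ccl2 was at -0.024 in HFD versus LFD and did not pass, and the call of Cd83 was lost without HFD replicate 1 or HFD + EC359 replicate 2.

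**Figure D4:**
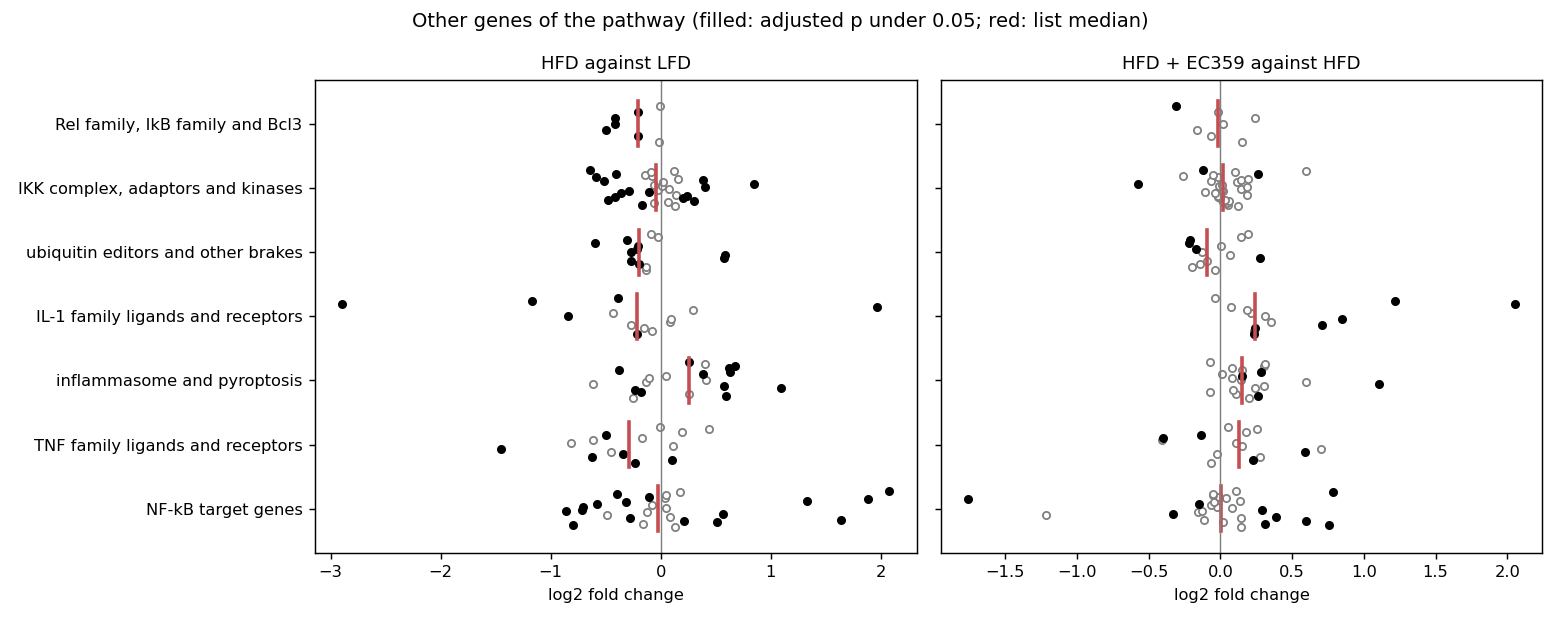
Log2 fold changes (horizontal axes) of the tested genes of the 7 pathway lists, for the diet in the left panel and for EC359 on the HFD in the right panel, with a point for each gene, filled where the adjusted p is under 0.05, and the list median in red. The IL-1 family list has its median at -0.22 in the first panel and at 0.24 in the second, and its lowest point in the first and highest in the second are Il1f5.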

How the data were processed

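RNA-seq was performed on 4T1 tumors of 3 groups (LFD, HFD, and HFD + EC359) with 3 libraries each. The authors deposited expected counts of read pairs per gene without normalization. Per the file headers they were made with featureCounts 1.5.0-p1 on mm9 alignments, reverse-stranded, with a mapping quality of at least 2 and with pairs of several genes or positions split into fractions. The submitters' processing notes name HISAT2 2.1.0 for the alignment, whereas the methods name TopHat2, HTSeq, and DESeq. The expected counts were rounded to whole numbers here, since 1.19% to 3.55% of the genes of a library held fractions. Strand was used in the counting, so the antisense neighbors of Il1a and Nfkb2 do not share their counts, and no member overlaps a gene on its own strand. Values are not comparable with a count of molecules, because read pairs include PCR copies, and limits from counts cover counting error only.

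The software was R 4.3.3, edgeR 4.0.16, and DESeq2 1.42.0. Genes were filtered with filterByExpr by group (13366 of 22609 kept), scaled with TMM factors, and fitted in a single quasi-likelihood model of the 3 groups, with Benjamini-Hochberg adjustment over all tested genes. A gene was called at an adjusted p under 0.05. CPM use TMM-scaled totals and TPM use the gene lengths of the files. For correlations a prior count of 2 was added. The GC and length trend was fitted for each library with splines of 5 degrees of freedom on mm9 exons and removed as an offset. The log2 ratio of Il1rn to Il1b was compared with exact permutation tests.

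The 10 genes, the 7 pathway lists, and the marker lists were chosen with earlier results of these data known. Beyond the 10 genes, the text names in each pathway list the 2 called genes with the largest change in HFD versus LFD and in HFD + EC359 versus HFD and the 2 highest in TPM, the 3 genes most correlated with Il1b, Tnf, Nfkbia, and Relb, and the 2 highest markers of each list quoted. Epcam, Krt7, Krt19, and Pgr were named after their values were seen, to describe the samples. The fits were tested on simulated counts with the mean gene levels and library totals of the deposited data and known changes in part of the genes of the HFD group. The simulated counts held no GC trend, so they cannot show how the calls fare under one. Each result was recomputed with DESeq2, with RLE factors, with library totals, with other filters on low counts, with the 6 libraries of a comparison alone, with a replicate block, with thinned counts, without the GC trend, at the threshold of the study, and with each library left out. For the pathway lists, thinned counts and libraries left out were added after seeing the data. RefSeq promoter windows were matched by symbol for 8 of the 10 genes.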

Additional observations from a re-analysis of the deposited data

How the results depend on the processing

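The 7 decreases on the HFD among the 10 genes passed in every alternative with an adjusted p under 0.05 except that of Relb, which was lost with the GC trend removed. At the threshold of the study, 0 of the 10 genes passed in each comparison, and of the pathway genes 9 passed in place of 69 in HFD versus LFD, 3 in place of 31 in HFD + EC359 versus HFD, and 6 in place of 82 in HFD + EC359 versus LFD. The 6 calls among the 10 genes in HFD + EC359 versus HFD became 2 with DESeq2 and 2 with thinned counts. At these settings 18.9% and 20.9% of all tested genes passed, so 2 of 10 is near the share of all genes. With each library left out in turn, the calls among the 10 genes numbered 7 to 7 in HFD versus LFD, 2 to 6 in HFD + EC359 versus HFD (fewest without HFD + EC359 replicate 3), and 6 to 8 in HFD + EC359 versus LFD. The pathway genes numbered 59 to 68, 20 to 36 (fewest without HFD + EC359 replicate 1), and 73 to 82 in the same order. Of all tested genes, 20.4% passed in HFD + EC359 versus HFD without HFD + EC359 replicate 3. The share was 21.2% without HFD + EC359 replicate 1. The log2 ratio of Il1rn to Il1b ranged from -0.042 to 0.090, from 0.39 to 0.59, and from 0.42 to 0.62, and it was negative in HFD versus LFD without LFD replicate 1 (-0.042) or HFD replicate 3 (-0.029). Il1a in HFD versus LFD turned to -0.037 with the GC trend removed and ran from -0.064 without LFD replicate 2 to 0.87 without LFD replicate 3, Tnf ran from -0.31 without HFD replicate 1 to 0.023 without HFD replicate 3, and Il1b in HFD + EC359 versus HFD turned to -0.033 with the GC trend removed. None of these values passed a test, and the causes were not tested. For libraries of the same replicate number, the correlations of their deviations from the group means ran from -0.030 to 0.017. For libraries of different numbers they ran from -0.023 to 0.027. The spread within most groups was near counting noise, so these values cannot exclude a pairing. With the replicate number as a block, the calls among the 10 genes were 7, 6, and 8, and among the pathway genes 69, 30, and 83 in the order of the comparisons. Of all tested genes, 52.0%, 26.6%, and 58.2% passed with the block. The counts of Il1a (7 to 29) and Tnf (17 to 53) limit what can be said of them at this depth.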
